A study of Mus musculus with 8 samples.

Results

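The 8 suppressors of cytokine signalling (Socs1 to Socs7 and Cish) and the transcription factors Stat3 and Stat5b, 10 genes in all, were examined by m6ARIP-seq of mouse liver. The genes were taken by symbol from the deposited peak lists, which name 11539 genes with a peak. Wtap-HKO mice carry 2 floxed copies of Wtap and an Alb-Cre transgene, which is driven in hepatocytes by the albumin promoter, and Wtap flox/flox mice carry the floxed gene without Cre. Mice of both genotypes were labelled as strain C57BL/6, named C57BL/6J in the methods of the study, were fed normal chow and were examined at 8 weeks of age. The RNA of each replicate was pooled from several mice, and each genotype had 2 IP libraries (mRNA fragments pulled down by an antibody to m6A) and 2 input libraries (fragments before the pull-down), 8 libraries in all. The endothelial cells, Kupffer cells and stellate cells of these livers keep Wtap, because Alb-Cre is not active in them.

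Each deposited list combines the replicates of a genotype, so each peak has 1 value per genotype. No SD can be given, replicate error is unknown for every difference, and the depth of the libraries is unknown. All differences described here are therefore differences between 2 lists. A peak is a stretch of exonic sequence with more IP than input signal, and its fold enrichment is the linear ratio of IP over input. The libraries came from whole liver, where fewer cells of a type and less RNA per cell cannot be told apart. A gene needs enough RNA for a peak to be called, and the expression of the genes was not analysed here.

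Cytokines, growth hormone and leptin bind receptors without enzymatic activity of their own, and Janus kinases (JAK) on these receptors phosphorylate STAT proteins, which enter the nucleus and switch on target genes. Among these targets are Socs genes and Cish themselves. Their proteins bind the receptor or the kinase through an SH2 domain and recruit a ubiquitin ligase through the SOCS box, which closes a feedback loop. In liver, STAT3 carries the acute phase response to IL-6, and STAT5B carries the growth hormone signal that drives Igf1. WTAP is a subunit of the complex that places m6A on adenosines of mRNA, mostly near stop codons and in long exons, and m6A in turn affects the stability and translation of mRNA. The question of the comparison was which of these feedback transcripts carried a peak in each genotype, and where.

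The sequence around the transcription start of Cish is shown because it holds letter matches to the element that STAT dimers bind. That of Stat5b is shown because it holds the edge of a peak listed in Wtap-HKO livers and not in Wtap flox/flox livers. Both sequences run from 100 bases before the RefSeq start to 30 bases after it on GRCm38.p6. They are written 5′ to 3′ on the strand of the gene. In the Cish window (chr9:107296559-107296688, plus strand) the capitals mark the matches to TTCNNNGAA, the element to which STAT dimers bind. In the Stat5b window (chr11:100850552-100850681, minus strand) the capitals mark the 23 bases that lie inside the Wtap-HKO peak.
Cish: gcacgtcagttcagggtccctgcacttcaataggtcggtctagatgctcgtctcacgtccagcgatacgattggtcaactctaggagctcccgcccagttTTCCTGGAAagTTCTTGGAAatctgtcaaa
Stat5b: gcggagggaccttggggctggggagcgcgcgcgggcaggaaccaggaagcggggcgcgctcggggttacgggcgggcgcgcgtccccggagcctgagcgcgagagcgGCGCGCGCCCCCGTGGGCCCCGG

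TTCNNNGAA reads the same on both strands, so each match was counted once. Over windows from 250 bases before a start to 50 bases after it, 8.3% of 32851 RefSeq windows held the element, and 0.457% (150 windows) held at least 2. RefSeq windows were matched for 6 of the 10 genes (Socs1, Socs3, Socs4, Cish, Stat3 and Stat5b). Cish held 2 matches, which begin at positions 1 and 12 counted from the transcription start. Socs3 held 1 match, beginning at position -154. The windows of Socs1, Socs4, Stat3 and both starts of Stat5b held 0 matches. The letters GGAC, the core of the sequence in which m6A is most often placed, were found in the first 50 transcribed bases of 18.9% of the windows and in 0 of those of the 6 genes. A match is only a match of letters in these windows, and binding of STAT proteins or methylation at these letters was not measured.

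All 10 genes had a peak in at least 1 genotype. Each list held 12 peaks of these genes, of 15635 peaks in Wtap flox/flox livers and 19185 in Wtap-HKO. Socs1 to Socs7 and Cish had a peak in both lists, and Stat3 and Stat5b, 2 of the 10 genes, had a peak in the Wtap-HKO list only. Over all 11539 genes with a peak, 22.0% had peaks in the Wtap-HKO list only and 7.99% in the Wtap flox/flox list only, so this split lay near that background. Peaks of the 2 lists that share at least 1 exonic base on the same strand were joined into a site, which gave 14 sites. Of these, 8 were shared by both lists, 3 were found only in Wtap flox/flox (Socs2, the 5′ site of Socs4 and the 3′ site of Socs7), and 3 only in Wtap-HKO (Socs2, Stat3 and Stat5b). With only peaks of a false discovery rate under 1e-05 the numbers were 7, 1 and 4, with Socs1 then in Wtap-HKO only. Over all 21646 sites of the lists, 54.5% were shared, 14.3% were in the Wtap flox/flox list only and 31.1% in the Wtap-HKO list only. With 14 sites, the split of the SOCS and STAT genes lay near that background. The peaks of these genes covered 5422 exonic nt in Wtap flox/flox and 4733 nt in Wtap-HKO, and the peaks of all genes covered 5194 kb and 6205 kb. Most of the difference in these genes came from Socs6 alone, which had 1257 nt and 630 nt.

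The fold enrichment of the 12 peaks ranged from 1.95 to 22.0 in Wtap flox/flox (median 8.84) and from 2.79 to 18.2 in Wtap-HKO (median 7.54). Over all peaks the medians were 5.51 and 5.93. At the 8 shared sites the log2 ratio of the fold enrichment (Wtap-HKO over Wtap flox/flox, highest peak of each list) ranged from -1.41 to 0.69, with a median of -0.21. The median over all 11805 shared sites was 0.0. The ratio was negative at 6 and positive at 2 of the 8 sites. Socs6 and Cish were at least 2-fold lower in Wtap-HKO, against 12.5% of all shared sites, and 0 of the 8 sites were at least 2-fold higher, against 14.7% of all shared sites. The same 2 sites overlapped a row of the list of differential peaks that the authors deposited, as did 21.9% of all shared sites. None of the 6 sites found in 1 list only overlapped such a row, against 13.8% of such sites over all genes.

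**Figure D1:**
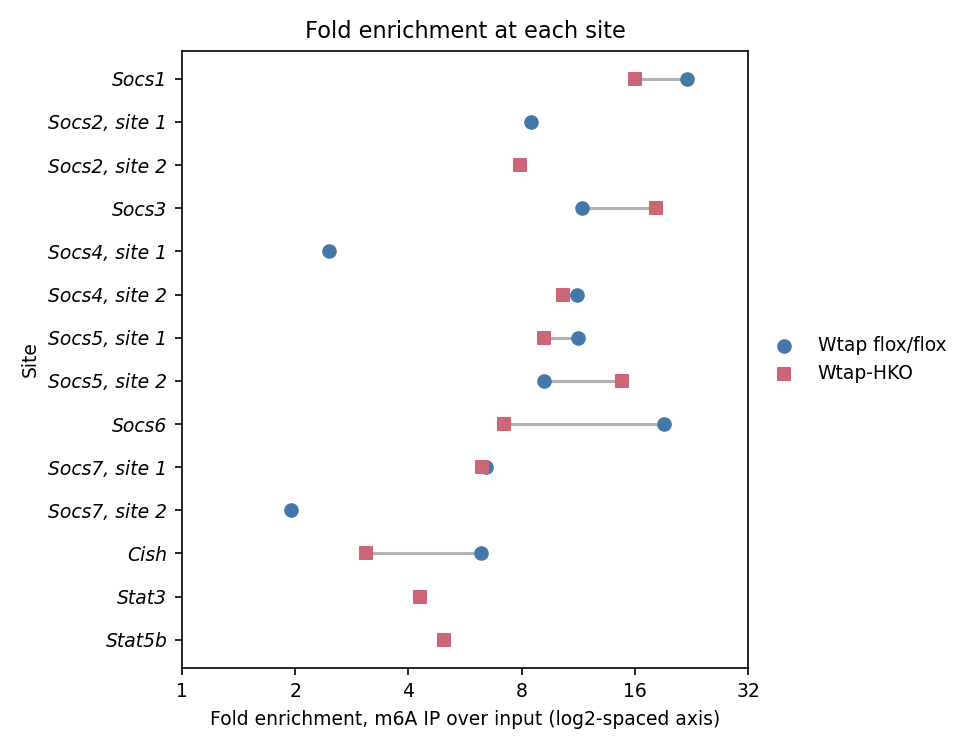
Fold enrichment (IP over input, log2-spaced axis) at the 14 sites of the SOCS and STAT genes, with circles for Wtap flox/flox, squares for Wtap-HKO and a line joining the values of a shared site; where a list held several peaks at a site, the highest is drawn. Socs6 and Cish have the longest lines to the left, Socs3 and the second site of Socs5 have lines to the right, and 6 sites have a symbol of 1 genotype only.

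Socs6, a SOCS box protein that binds the insulin receptor and its substrates, had the lowest ratio of the 7 genes with a shared site. In Wtap flox/flox livers, Socs6 (ENSMUSG00000056153, chromosome 18 minus strand) had 1 peak from 88869096 to 88870352, which spanned 1257 nt with a fold enrichment of 19.1. This value lay at percentile 91.7 of the Wtap flox/flox list. In Wtap-HKO livers, the same stretch held 2 separate peaks. The one nearer to the 3′ end, from 88869186 to 88869605 (420 nt), had a fold enrichment of 7.18. The one nearer to the 5′ end, from 88870143 to 88870352 (210 nt), had a fold enrichment of 2.79. Both were shorter and lower than the Wtap flox/flox peak. Between them lay 537 nt with no Wtap-HKO peak (88869606 to 88870142), and 50.1% of the Wtap flox/flox peak was covered in Wtap-HKO. The middle of the site was thus listed in Wtap flox/flox only. Set against the higher of the 2 Wtap-HKO peaks, the enrichment was 2.66-fold lower in Wtap-HKO, a log2 ratio of -1.41 that lay at percentile 5.22 of all shared sites. The differential row of Socs6 spanned 1317 nt (88869096 to 88870412) with a fold enrichment of 9.81 over both genotypes jointly. The midpoint of the site lay at 84.4% of the gene span from the 5′ end.

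Cish, the STAT5 target whose protein blocks STAT5 docking on cytokine receptors, was also lower. Its peak (ENSMUSG00000032578, chromosome 9 plus strand) ran from 107300625 to 107301314 in Wtap flox/flox (690 nt) with a fold enrichment of 6.23. In Wtap-HKO it ran from 107300745 to 107301135 (391 nt) with a fold enrichment of 3.08. The Wtap-HKO peak lay wholly inside the other and covered 56.7% of it, with the missing stretches at both ends. The ratio was 2.02-fold lower in Wtap-HKO (log2 -1.02, percentile 11.97 of all shared sites), just past the 2-fold limit. The differential row spanned 630 nt with a joint fold enrichment of 3.96. The site began 3966 nt past the transcription start and its midpoint lay at 70.4% of the gene span, far from the matches to TTCNNNGAA printed above.

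Socs1 and Socs3, the inhibitors that bind and block JAK directly, differed in direction. Socs1 (ENSMUSG00000038037, chromosome 16 minus strand) had the highest fold enrichment of the 8 genes with a Wtap flox/flox peak, 22.0 over 91 nt (10784488 to 10784578), at percentile 93.8 of the list. In Wtap-HKO its peak was wider and lower, 16.0 over 210 nt (10784518 to 10784727), a log2 ratio of -0.46. The peaks shared 61 nt, and the log10 false discovery rate of the Wtap flox/flox peak, -4.85, was among the least extreme of these genes. Socs3 (ENSMUSG00000053113, chromosome 11 minus strand), the feedback inhibitor of IL-6 and leptin signalling, had a fold enrichment of 11.6 over 835 nt in Wtap flox/flox (117967092 to 117967926). In Wtap-HKO it reached 18.2 over 865 nt (117967032 to 117967896), the highest value of the 10 genes in that list. The peaks overlapped almost entirely, with 805 nt in common, and Socs3 was 1.57-fold higher in Wtap-HKO (log2 0.65, percentile 74.8 of all shared sites), short of the 2-fold limit.

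Socs2, the main brake on growth hormone signalling, had no site in common between the genotypes. Its Wtap flox/flox site (ENSMUSG00000020027, chromosome 10 minus strand, 95412837 to 95413528) consisted of 2 overlapping peaks. One, with a fold enrichment of 8.49, spanned an intron and had blocks of 274 and 27 nt. The other covered 271 nt, all within the first, and had a fold enrichment of 5.19. The midpoint of this site lay at 12.4% of the gene span of 33419 nt. In Wtap-HKO the only Socs2 peak covered 121 nt (95388181 to 95388301) with a fold enrichment of 7.90, at 87.0% of the span. The peak nearer to the 5′ end was therefore listed in Wtap flox/flox and the peak nearer to the 3′ end in Wtap-HKO. Neither overlapped a row of the differential list.

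Socs4 and Socs5, which are most often described as inhibitors of EGF receptor signalling, kept their main sites. The main Socs4 site (ENSMUSG00000048379, chromosome 14 plus strand) had a fold enrichment of 11.2 over 689 nt in Wtap flox/flox (47289734 to 47290422). In Wtap-HKO it had 10.3 over 659 nt ending at the same base (log2 -0.12). A small second peak of Socs4, 150 nt (47277021 to 47277170) beginning 101 nt past the RefSeq start, had a fold enrichment of 2.46 and was found in Wtap flox/flox only. Socs5 (ENSMUSG00000037104, chromosome 17 plus strand) had 2 neighbouring sites in both genotypes, at 88.1% and 91.1% of its span. The first covered the same 509 nt in both lists (87133789 to 87134297), and its fold enrichment was 11.3 in Wtap flox/flox livers and 9.16 in Wtap-HKO (log2 -0.30). The second had a fold enrichment of 9.19 over 509 nt in Wtap flox/flox (87134745 to 87135253) and 14.8 over 538 nt in Wtap-HKO (87134626 to 87135163), a log2 ratio of 0.69. The order of the 2 Socs5 sites was thus opposite in the genotypes, and the gap between them was 447 nt in Wtap flox/flox and 328 nt in Wtap-HKO. Both sites of Socs5 stayed within the 2-fold limit.

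Socs7, an adaptor that binds phosphorylated signalling proteins, differed little at its first site. That site (ENSMUSG00000038485, chromosome 11 plus strand) began at 97362671 in both lists, 379 nt from the 5′ edge of the gene span. Its fold enrichment was 6.44 over 300 nt in Wtap flox/flox and 6.28 over 509 nt in Wtap-HKO (log2 -0.04). The Wtap-HKO peak held the whole Wtap flox/flox peak and a further 209 nt downstream. A second Socs7 peak (97393550 to 97393640, 91 nt) was found in Wtap flox/flox only. Its fold enrichment of 1.95 and log10 false discovery rate of -2.90 were the weakest of all peaks of the 10 genes in both lists.

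**Figure D2:**
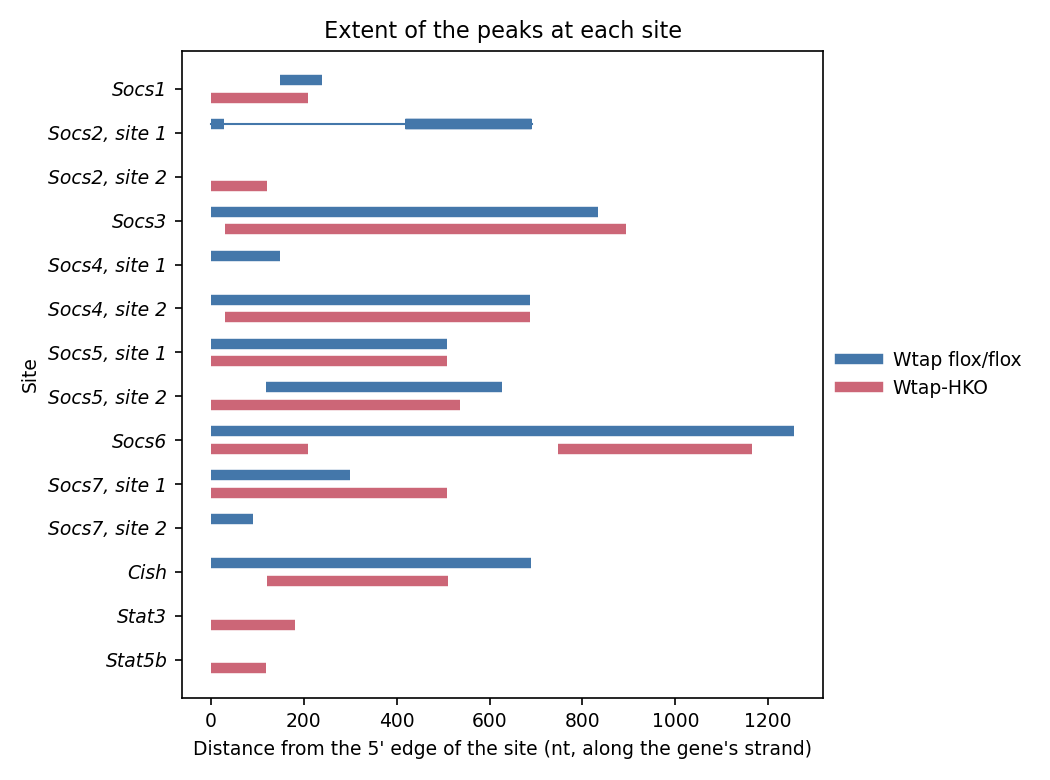
Extent of the peaks at each of the 14 sites, in nt from the 5′ edge of the site along the strand of the gene, with Wtap flox/flox above and Wtap-HKO below; the thin line at Socs2 marks an intron inside a peak. The Socs6 peak of 1257 nt is matched by 2 Wtap-HKO peaks of 210 and 420 nt with a gap of 537 nt, and the Wtap-HKO peak of Cish lies inside that of Wtap flox/flox.

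Stat3 and Stat5b, the transcription factors of the pathway, had peaks in Wtap-HKO only, and both lay at a transcription start. The Stat3 peak (ENSMUSG00000004040, chromosome 11 minus strand, 100939270 to 100939450) covered 181 nt and began 90 nt past the RefSeq start at 100939540. Its fold enrichment was 4.28, at percentile 33.1 of the Wtap-HKO list. The Stat5b peak (ENSMUSG00000020919, chromosome 11 minus strand, 100850455 to 100850574) covered 120 nt and began 7 nt past one of the 2 RefSeq starts of the gene, at 100850581, so that its first 23 bases are the capitals printed above. The Stat5b peak began 8430 nt from the 5′ edge of the gene span. Its fold enrichment was 4.97, at percentile 40.6. Both values lay below the median of all Wtap-HKO peaks. Neither site overlapped a row of the differential list, so the authors' comparison did not list them as differing.

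A 5′ edge within 300 nt of a RefSeq start was found for 37.0% of the Wtap-HKO-only sites with a known start over all genes (1741 of 4708), 6.08% of the Wtap flox/flox-only sites (133 of 2189) and 18.0% of the shared sites (1563 of 8661). Of the sites of the SOCS and STAT genes, 7 had a known start. Both Wtap-HKO-only sites among them (Stat3 and Stat5b) and the only Wtap flox/flox-only site (Socs4) lay within 300 nt, and 0 of the 4 shared sites did. The start sites of Stat3 and Stat5b thus belong to a class that is common among Wtap-HKO-only sites of the whole list. The number of SOCS and STAT sites is too small to set them apart from it.

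**Figure D3:**
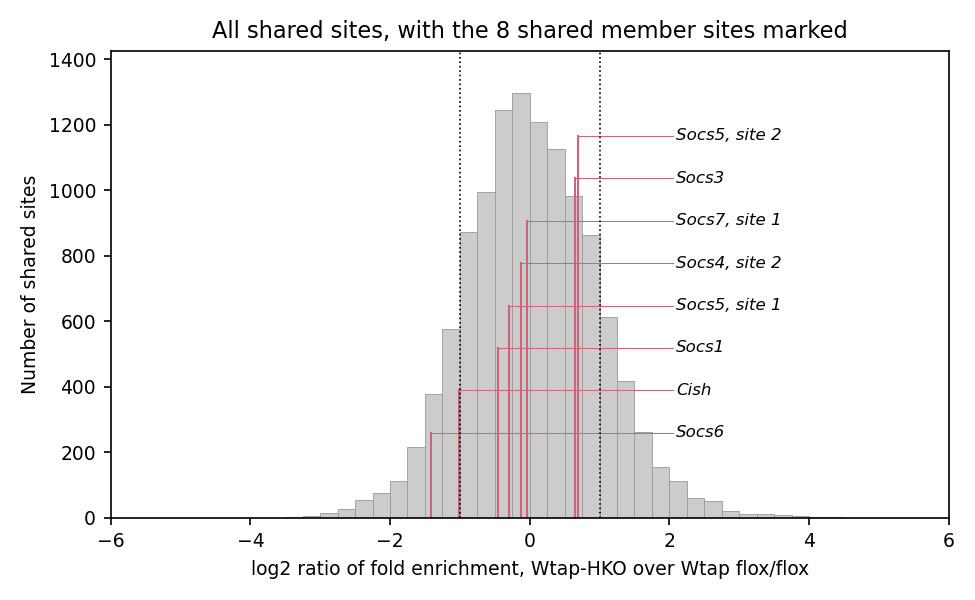
Number of shared sites by log2 ratio of fold enrichment (Wtap-HKO over Wtap flox/flox) for all 11805 shared sites in grey, with the 8 sites of the SOCS genes marked by lines whose height has no meaning and dotted lines at a 2-fold difference. Socs6 and Cish lie at or past the left line, at percentiles 5.22 and 11.97, and the other 6 lie between the lines.

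The other genes of the pathway were followed in 7 lists of 78 symbols. Of these symbols, 59 had a peak in Wtap flox/flox livers and 63 in Wtap-HKO. Peaks in the Wtap flox/flox list only were found for 3 symbols, and in the Wtap-HKO list only for 7. Over all 11539 genes with a peak, these shares were 7.99% and 22.0%. The 78 symbols held 143 sites, of which 96 were shared, 15 were in Wtap flox/flox only and 32 in Wtap-HKO only. The shares over all 21646 sites of the lists were 54.5%, 14.3% and 31.1%. At the 96 shared sites the fold enrichment was at least 2-fold lower in Wtap-HKO at 9 sites (9.38%) and at least 2-fold higher at 15 (15.6%), against 12.5% and 14.7% of all shared sites. The median log2 ratio of the 96 sites was 0.22, whereas that of the 8 SOCS sites was -0.21 and that of all shared sites was 0.0. The counts of each list below are to be read against the same shares, 12.5% lower and 14.7% higher. Counts of genes with a peak are to be read against the gene shares above, 7.99% and 22.0%.

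Among 20 cytokine, growth hormone and insulin receptors, 18 had a peak in Wtap flox/flox livers and 19 in Wtap-HKO, with 4 of 27 shared sites lower and 3 higher by the 2-fold limit. The lowest was Il22ra1, the hepatocyte receptor chain for IL-22, at 12 in Wtap flox/flox livers and 2.25 in Wtap-HKO (log2 -2.42). Insr, the insulin receptor, had 14.8 and 5.79 (log2 -1.35) at one site and a log2 ratio of -1.04 at the next. The remaining shared site of Insr was not lower (2.70 and 3.13, log2 0.21). The highest was a site of Il6ra, the IL-6 binding chain, at 19.1 and 56.0 (log2 1.55). The other shared sites of Il6ra differed little (log2 0.015 and -0.13). Lifr, a chain of the leukemia inhibitory factor receptor, had 1.55 and 4.25 (log2 1.46) at a site 2 nt past a transcription start. Ghr, the growth hormone receptor, differed in direction along its length. Its site at a transcription start had 2.44 in Wtap flox/flox livers and 5.65 in Wtap-HKO (log2 1.21), whereas its other shared site had 11.8 and 7.30 (log2 -0.69).

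Of the 4 JAK, 2 had a peak in Wtap flox/flox livers and 3 in Wtap-HKO, and 0 of 3 shared sites passed the 2-fold limit (median log2 ratio 0.83). Jak3, the kinase of the common gamma chain, had a peak in Wtap-HKO only (fold enrichment 4.34). Of the 5 other STAT, 3 had a peak in both genotypes, with 2 of 7 shared sites higher in Wtap-HKO and 0 lower. Both were sites of Stat6, the IL-4 and IL-13 transcription factor. The one at the transcription start had 3.95 in Wtap flox/flox livers and 10.7 in Wtap-HKO (log2 1.44), and the other had 2.34 and 4.70 (log2 1.01). The remaining shared site of Stat6 differed little (3.64 and 4.19, log2 0.20). Stat5a, the close relative of Stat5b, had no peak in either list.

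Of 11 PIAS proteins, phosphatases and adaptors that were grouped as other inhibitors, 8 had a peak in both genotypes, and 3 of 20 shared sites were higher in Wtap-HKO and 0 lower. The higher ones were Pias1, a SUMO ligase that inhibits STAT proteins (6.29 and 16.3, log2 1.37), Sh2b1, an adaptor known to enhance rather than inhibit JAK2 (3.95 and 8.94, log2 1.18), and Pias4 (2.21 and 4.80, log2 1.12). The other shared sites of these genes had log2 ratios of -0.10 (Pias1), -0.56 (Pias4), and 0.38 and 0.03 (Sh2b1). The partners with which the SOCS box forms a ubiquitin ligase were searched under 6 symbols, of which Tceb1 and Tceb2 are older names of Eloc and Elob. Of these, 2 had a peak in both genotypes, and Elob was higher in Wtap-HKO at its transcription start (2.44 and 4.91, log2 1.01).

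Among 8 genes regulated by growth hormone and STAT5, 7 had a peak in Wtap flox/flox livers and 8 in Wtap-HKO, with 3 of 14 shared sites lower in Wtap-HKO and 0 higher. Igf1, the growth factor that liver secretes in response to growth hormone, had 46.6 in Wtap flox/flox livers and 20.3 in Wtap-HKO (log2 -1.20) at one site. Its other shared site had a log2 ratio of -0.34, and further Igf1 sites were found in Wtap-HKO only (5.28 and 5.56). Igfals, which holds IGF1 in its circulating complex, was lower at 2 sites (5.32 and 2.36, log2 -1.17; 9.57 and 4.58, log2 -1.06). Bcl6, a transcriptional repressor, had a peak in Wtap-HKO only (3.56). Cish, Igf1 and Igfals were thus each lower in Wtap-HKO at a shared site by the 2-fold limit, as were 12.5% of all shared sites. The median log2 ratio over the 14 shared sites of the 8 genes was -0.04. Igfbp3 was higher at its shared sites without passing the limit (log2 0.81 and 0.84), and Onecut1 was lower at its shared sites without passing it (log2 -0.43, -0.75 and -0.73).

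Among 24 STAT3 target and acute phase genes, 19 had a peak in Wtap flox/flox livers and 20 in Wtap-HKO, with 2 of 23 shared sites lower and 6 higher and a median log2 ratio of -0.16. Pim1, a serine kinase induced by STAT3 and STAT5, had 3.11 in Wtap flox/flox livers and 12.8 in Wtap-HKO (log2 2.04) at a site 27 nt past its transcription start. Its second site had 3.80 and 7.73 (log2 1.02). Myc, the growth regulator, was lower, with 21.3 and 6.58 (log2 -1.70). Cebpd, a transcription factor of the acute phase, had 2.67 and 6.93 (log2 1.38) at one site and a log2 ratio of -0.73 at the other. The acute phase genes Lrg1 (1.75 and 4.05, log2 1.21) and Itih4 (3.94 and 8.58, log2 1.12) were higher at their transcription starts, but not along their whole length. The other shared site of Lrg1 had 3.44 and 1.77 (log2 -0.96), and a further site of Itih4 was found in Wtap flox/flox only (6.22). The acute phase gene Hp, named after its values were seen as the other of the 2 lower sites, had 4.27 and 2.03 (log2 -1.07).

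The sites of these 7 lists that were higher in Wtap-HKO often lay at gene starts, as did such sites over all genes. Of the 15 sites at least 2-fold higher, 13 had a known start and 9 of these lay within 300 nt of it (69.2%). Over all genes this share was 45.1% (541 of 1199). Of the 9 sites at least 2-fold lower, 5 had a known start and 0 lay within 300 nt, against 6.23% over all genes (69 of 1107). Of the Wtap-HKO-only sites, 13 of 25 lay within 300 nt (52%), against 37.0% over all genes. The counts of the 7 lists are small, and their difference from all genes was not tested.

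**Figure D4:**
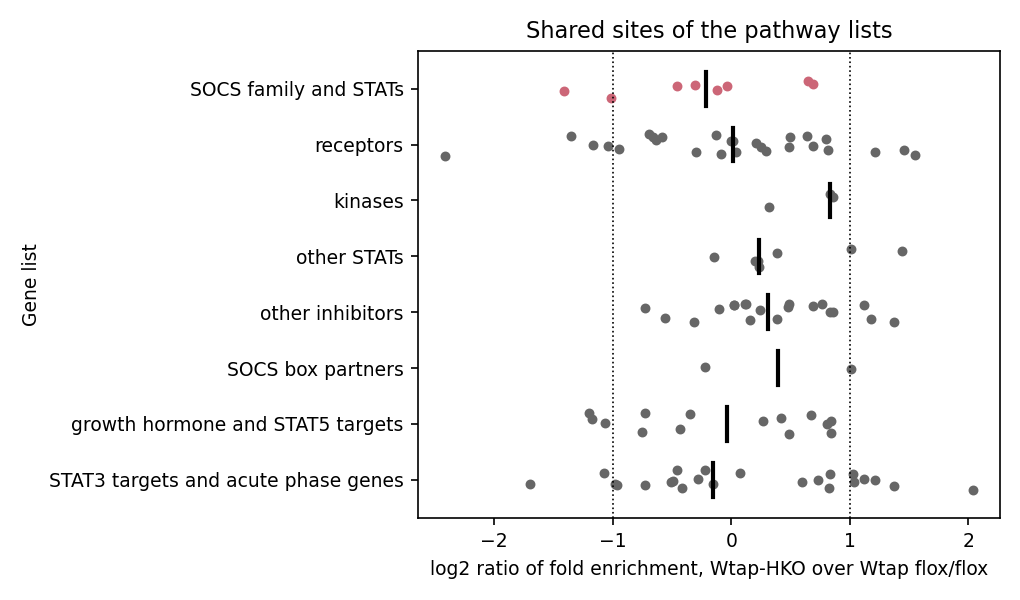
Log2 ratio of fold enrichment (Wtap-HKO over Wtap flox/flox) at each shared site of the SOCS family and STAT genes and of the 7 other gene lists, with 1 point per site, a black bar at the median of a list and dotted lines at a 2-fold difference. The SOCS sites have a median of -0.21, other STAT of 0.23 and other inhibitors of 0.31, and the points of all lists but the kinases lie on both sides of 0.

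Wtap itself had 3 shared sites, with log2 ratios of -0.85, -0.01 and 1.23. Peak enrichment relative to input does not measure how much Wtap mRNA was left. Marker genes of other liver cells also differed in their peaks. Of 10 hepatocyte markers, 6 had a peak in each list, with Alb, Apob and Hnf4a in both, Cyp2e1 in Wtap flox/flox only and Ttr in Wtap-HKO only. At the 12 shared sites of the hepatocyte markers the median log2 ratio was -0.69, with 3 sites at least 2-fold lower in Wtap-HKO and 1 at least 2-fold higher. Of all shared sites, 12.5% were lower and 14.7% higher by that limit. Of 10 Kupffer cell and leukocyte markers, 4 had a peak in Wtap flox/flox livers and 8 in Wtap-HKO (Cd68, Marco, Ptprc and Lyz2 in Wtap-HKO only). Of 10 stellate cell and fibroblast markers, 5 and 8 had a peak (Col1a1, Col3a1 and Dcn in Wtap-HKO only). The numbers were 7 and 7 of 10 for endothelial cells and 2 and 3 of 8 for cholangiocytes (Epcam in Wtap-HKO only). The median log2 ratio was -0.05 at 7 shared sites of the Kupffer cell and leukocyte markers and 0.63 at 7 of the stellate cell and fibroblast markers. It was 0.42 at 8 shared sites of the endothelial markers and -0.15 at 2 of the cholangiocyte markers. Over all genes with a peak, 22.0% had peaks in the Wtap-HKO list only and 7.99% in the Wtap flox/flox list only. Stat3 and Stat5b were among the former, and the part of cell composition in the peaks of the SOCS and STAT genes was not tested.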

How the data were processed

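m6ARIP-seq libraries of livers of both genotypes were trimmed with fastp 0.19.11 and aligned to GRCm38 with BWA 0.7.12, per the submitters' processing notes, and the authors called peaks with exomePeak. The authors deposited for each peak the fold enrichment, a linear ratio of IP over input, and log10 scores of the p-value and false discovery rate. The rule for combining replicates and the scaling of libraries are not given in the sources used here. The differential list also holds the authors' log2 fold change between the genotypes with its scores. These columns were not used, and only the positions and joint fold enrichment of its rows were taken. Peaks were joined into sites by at least 1 shared exonic base in pandas 2.3.3 and numpy 2.4.6 under Python 3.11.15. The joining and the log2 ratios were tested on simulated plus-strand peaks without introns, and the other computations were not tested in this way. Intervals came from statsmodels 0.14.6 and figures from matplotlib 3.10.9. RefSeq starts and sequences (GRCm38.p6) were matched by symbol. All peaks of the 10 genes and Wtap were named, and from each pathway list at most 5 genes past the 2-fold limit or with peaks in 1 list only, by size of the log2 ratio and then of the fold enrichment. Igfbp3, Onecut1, Hp and Stat5a were named outside this rule. The members and lists were chosen with earlier results of these data known. Peak sequences, transcript models and expression were not used here. Alternatives tried were peaks with a false discovery rate under 1e-05, a fold enrichment of at least 2, an overlap of 50%, whole spans, length-weighted means, centring on the median, and a limit of 1.5-fold. Counting each peak on its own and a distance of 100 nt were alternatives chosen after seeing the data.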

Additional observations from a re-analysis of the deposited data

How the results depend on the processing

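No paired analysis was possible because the replicates are combined in each list, and for the same reason no replicate could be left out. Of the values recomputed under the alternatives, 53 were labelled as the same and 17 as moved. The first label allowed small changes in counts, such as 8 to 7 shared sites of the 10 genes or 59 to 57 pathway genes. No log2 ratio changed sign, but many of these rechecks could not show a change. Centring left the ratios as they were because the median of all shared sites was 0.0. The length-weighted mean could alter only Socs6, the only shared site with more than 1 peak in a list. With only peaks of a false discovery rate under 1e-05, 1 site of the 10 genes was left in Wtap flox/flox only, since the weaker peaks of Socs4 and Socs7 were lost, and so was the Wtap flox/flox peak of Socs1, which left 7 shared sites and 4 in Wtap-HKO only. Counting each peak on its own gave 17 shared peaks of these genes. With a limit of 1.5-fold, 2 of their sites (Socs3 and the second site of Socs5) were higher in Wtap-HKO, against 27.6% of all shared sites, and 25.5% of all shared sites were lower. The length-weighted mean gave Socs6 a log2 ratio of -1.74. Over all sites, the false discovery rate under 1e-05, the fold enrichment of at least 2 and the overlap of 50% gave a shared share of 56.0%, 52.7% and 53.3% and a Wtap flox/flox-only share of 13.5%, 14.8% and 15.0%. The Wtap-HKO-only share was 30.5% and 32.5% under the first 2 of these. Within 100 nt of a start lay 15.0% of the shared, 4.25% of the Wtap flox/flox-only and 30.4% of the Wtap-HKO-only sites. The 95% Wilson intervals of the main shares were 53.9 to 55.2% (shared), 13.9 to 14.8% (Wtap flox/flox only) and 30.5 to 31.8% (Wtap-HKO only). They cover counting error only, and neighbouring sites of a gene are not independent. The cause of the moves was not tested. The depth of the libraries is unknown, so a missing peak does not show that m6A was absent.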
